A study of Mus musculus with 27 samples.

Results

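The 28 min ischemia group was compared with the 0 min (sham) group in mouse kidneys taken after 24 h of reperfusion. The 2 groups were chosen by their labels alone and hold 6 of the 27 kidneys of the series, 3 in each group. All animals were C57BL/6 mice, and their age was not given in the sources used here. In the study's model (uIRIx) the right kidney was removed and the pedicle of the left kidney was clamped for the time of the group. The clamp was released after 28 min in the 28 min group, and the sham group had 0 min of clamping. Removal of the right kidney was not described separately for the mice labelled sham. The left kidney of 1 mouse was 1 sample. If the sham mice had also lost the right kidney, both groups carry the operation and that loss, and they differ by the clamping. RNA-Seq measured 19392 gene symbols as FPKM (fragments per length of transcript and per sequencing depth), and 18188 of them were above 0 FPKM in at least 3 of the 27 kidneys and were tested.

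Clamping the renal pedicle stops the blood flow of the kidney, and releasing it brings oxygen back to tissue that has run out of ATP. The cells of the proximal tubule depend on fatty acid oxidation in mitochondria and carry most of the reabsorption of the kidney, which makes them the classical site of ischemic injury, together with the thick ascending limb in the poorly perfused outer medulla. Injured tubule cells are known to lose their transporters and brush border, to switch on injury genes such as Havcr1 (KIM-1) and Lcn2 (NGAL), and to enter the cell cycle to replace lost neighbours.

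Read counts were not used here, and depth was compared only through low FPKM values. For 422 genes of low level the smallest FPKM values were taken as those of single fragments. They put the relative depth of the 6 kidneys between 0.998 and 1.02. Only values close to the lowest of each gene were used, so a larger difference in depth could not have been seen. Between 16498 and 16767 genes were above 0 FPKM in each of the 6 kidneys. Over all 19392 gene symbols, of which 1201 were at 0 in all 6 kidneys, log2(FPKM + 1) was correlated between kidneys as a description across genes. Within 1 group r was 0.9922 to 0.9967 in the 0 min group and 0.9965 to 0.9973 in the 28 min group, and between the groups it was 0.9544 to 0.9636. The 3 sham kidneys were not alike. Sham replicates 2 and 3 had high levels of interferon-induced genes, with a summed FPKM of 20 interferon-induced GTPases of 3311 and 2456 against 129 in sham replicate 1. Sham replicate 3 also had higher injury genes, with Havcr1 at 22.0 FPKM against 2.81 and 2.49 in the others. Where the call of a named gene was lost or gained without sham replicates 2 and 3, the value without them is given beside it. Counts of calls over gene lists also moved without these kidneys, and this is given for some lists only. Markers of the labelled tissue were present in all 6 kidneys, with a summed FPKM of 10 proximal tubule markers of 3344 to 3789 in the 0 min group and of 1442 to 1603 in the 28 min group. In whole kidney, fewer cells of a type and less RNA per cell cannot be told apart.

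The comparison gave 1542 differentially expressed genes (DEGs). A DEG differed by more than 1 on the log2 scale in either direction, with a Benjamini-Hochberg adjusted p-value below 0.05 in limma on quantile-normalized log2(FPKM + 1). Of the genes tested, 776 (4.27%) were DEGs higher at 28 min and 766 (4.21%) were DEGs lower. The FPKM values of the 2 groups did not overlap for 1511 of the 1542 DEGs. Over all genes tested the adjusted p-value alone was below 0.05 for 24.5% higher and 23.6% lower, and the 3 values of each group did not overlap for 35.5% higher and 21.4% lower, so these weaker criteria were met by a large share of the transcriptome. A log2 difference above 3 was found for 36 DEGs and below -3 for 58. Without quantile normalization, 954 DEGs were higher and 660 lower, so that the higher share of the DEGs moved from 50.3% to 59.1%, while the median log2 difference of all genes was 0.03.

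**Figure D1:**
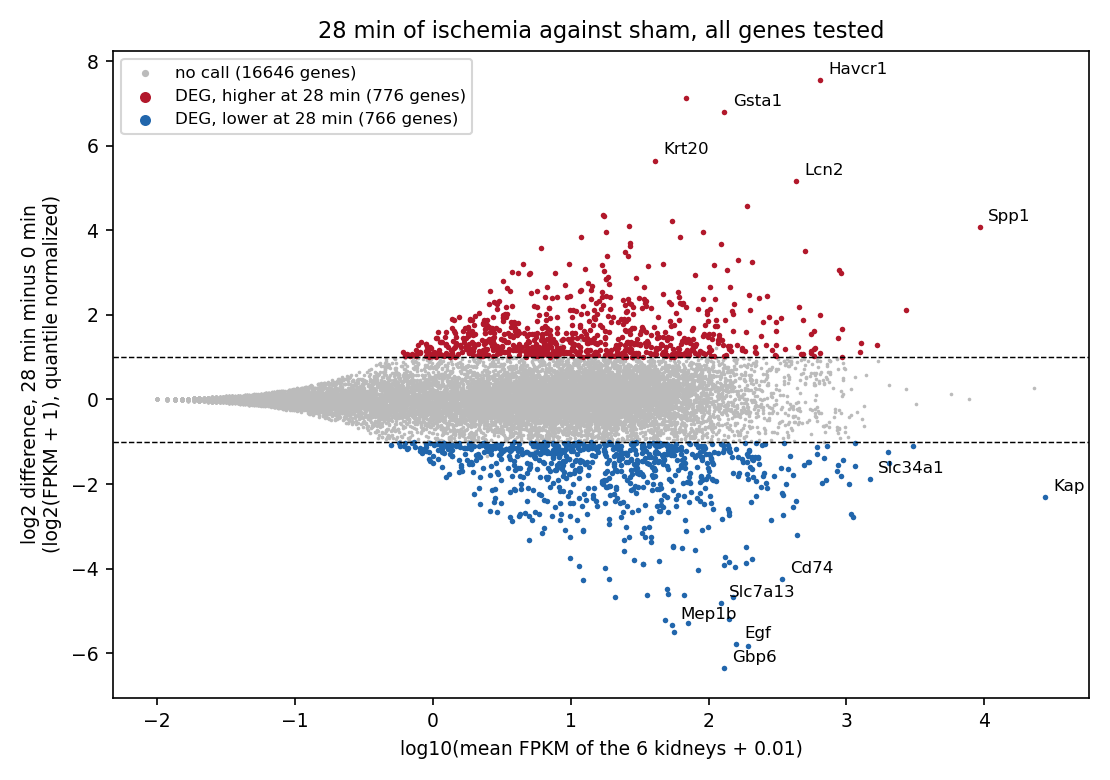
Log2 difference between the 28 min and the 0 min group (y axis, on quantile-normalized log2(FPKM + 1)) against the mean FPKM of the 6 kidneys (x axis, log10), 1 point a gene. Red points are the 776 DEGs higher and blue points the 766 DEGs lower at 28 min, grey points have no call, and dashed lines mark a log2 difference of 1 and of -1.

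The largest increase was in Havcr1, the gene of kidney injury molecule 1, a membrane receptor of injured proximal tubule cells (chromosome 11, 46739822 to 46779578, GRCm38.p6 in RefSeq). It was 2.81, 2.49 and 22.0 FPKM in the sham kidneys and 1331, 1129 and 1359 FPKM in the kidneys after 28 min. All 3 ischemic kidneys lay far above the highest sham kidney, and the log2 difference was 7.55 (SE 0.74, adjusted p = 1.1e-07). Gsta1, a glutathione S-transferase that detoxifies electrophiles, had 1.25, 0.83 and 1.44 FPKM against 295, 228 and 255 FPKM, a log2 difference of 6.80 (SE 0.52, adjusted p = 6.4e-09). Its close paralogs can share reads, so the split between them is uncertain. Krt20, a keratin of stressed epithelia, was 0.23, 0.32 and 1.11 FPKM in sham and 107, 70.2 and 65.7 FPKM at 28 min. Lcn2, which encodes the iron-carrier binding protein NGAL, was 11.5, 9.39 and 63.6 FPKM against 759, 931 and 827 FPKM, with a log2 difference of 5.16 (SE 0.78, adjusted p = 1.6e-05). For both genes the groups were well apart, and sham replicate 3 was again the highest sham kidney.

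Spp1, the secreted matrix protein osteopontin, went from 776, 1132 and 1705 FPKM to 16611, 20463 and 15114 FPKM. Its share of all summed FPKM was 0.145% to 0.315% in the sham kidneys and 2.75% to 3.78% in the ischemic ones, among the highest of any gene at 28 min. Also among the 12 largest increases were S100a6, a calcium-binding protein (log2 difference 4.57), Sprr2f and Sprr1a, small proline-rich proteins of the cornified cell envelope (4.35 and 3.95), Fgb, the fibrinogen beta chain (4.21), Cxcl1, a neutrophil-attracting chemokine (4.11), and Timp1, an inhibitor of metalloproteinases (3.96). None of these overlapped between the groups.

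**Figure D2:**
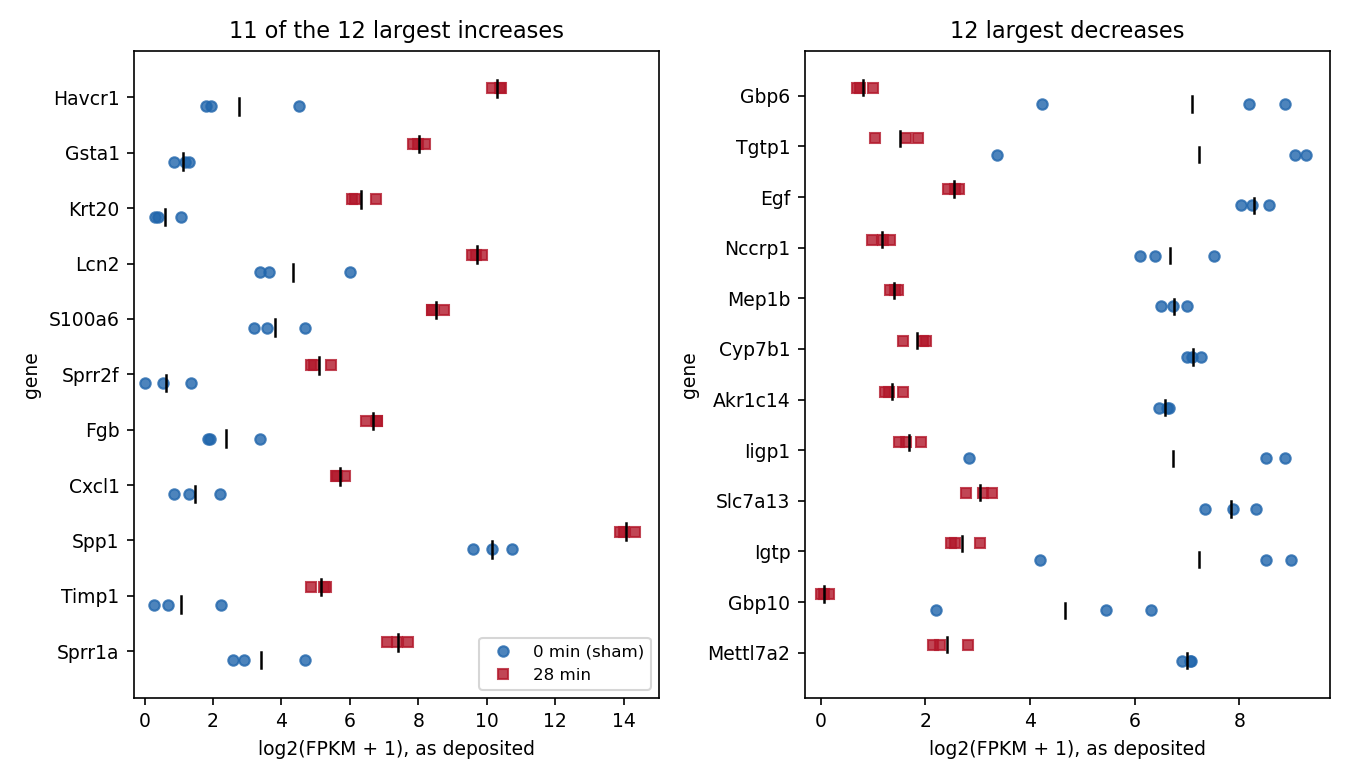
Log2(FPKM + 1) as deposited in each kidney (x axis) for 11 of the 12 genes with the largest increase (left) and the 12 with the largest decrease (right) at 28 min. Circles are the 3 sham kidneys, squares the 3 kidneys after 28 min and black bars the group means, and for the interferon genes Gbp6, Tgtp1, Iigp1, Igtp and Gbp10 1 sham kidney lies well below the other sham kidneys.

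Of 24 tubular injury markers, 22 were DEGs higher at 28 min and none was lower, against 4.27% of all genes tested, and the median log2 difference of the list was 3.20 against 0.00 over all genes. The members of this and the later lists were chosen with earlier results of these data known. Their shares are therefore a description and cannot serve as a test against all genes. The 2 markers without a call were Cryab, a small heat shock protein (log2 difference 0.88, adjusted p = 0.052, and 1.03 with a call without sham replicate 3), and Timp3, an inhibitor of metalloproteinases (-0.66, adjusted p = 0.0091). Leaving out sham replicates 2 and 3 left 21 of the 24 called. Vcam1, an adhesion molecule of failed-repair tubule cells that was chosen after its values were seen, had 1.76, 3.42 and 3.19 FPKM against 11.2, 10.2 and 8.04 FPKM, and its adjusted p-value of 0.036 was lost in 5 of the 6 fits that left out 1 kidney and without sham replicates 2 and 3 (log2 difference 1.82, adjusted p = 0.077).

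Keratins and markers of tubular repair formed the next group, with 16 of 24 higher and none lower (median log2 difference 1.45). The simple-epithelium keratins Krt8 (53.7, 54.8 and 60.2 FPKM against 359, 324 and 317 FPKM) and Krt18 (14.0, 13.8 and 20.5 FPKM against 107, 104 and 102 FPKM) rose by log2 differences of 2.46 and 2.54. Krt7, a keratin of the collecting duct and urothelium, had a log2 difference of 0.76 and no call, and Epcam, an epithelial adhesion molecule, one of -0.17. Vim, the intermediate filament of mesenchymal cells, and Sox9, a transcription factor of regenerating tubules, both chosen after their values were seen, each had a log2 difference of 2.30. Sox9 stayed low in absolute terms, at 0.25, 0.22 and 0.16 FPKM in sham and 6.67, 4.24 and 4.90 FPKM at 28 min.

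The promoters of several of these genes carry letters that match the binding motif of AP-1, the FOS and JUN transcription factor. The windows below come from the bases upstream of RefSeq transcript starts (GRCm38.p6, on the strand of the gene), and capitals mark the match to TGANTCA. Fgb, Sprr2f and Sprr1a are shown because they were among the largest increases and held a match. Plaur held a match and was among the matrix genes with the largest increases. The other leading genes named above, Havcr1, Gsta1, Krt20, Lcn2, Spp1, S100a6, Cxcl1 and Timp1, had no match or no RefSeq promoter. Fgb lies on the minus strand at chr3:83050018-83050048, Sprr2f on the plus strand at chr3:92364978-92365008, Sprr1a on the minus strand at chr3:92486009-92486039 and Plaur on the plus strand at chr7:24462402-24462432.
Fgb: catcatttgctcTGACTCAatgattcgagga
Sprr2f: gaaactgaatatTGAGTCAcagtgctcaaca
Sprr1a: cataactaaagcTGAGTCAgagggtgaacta
Plaur: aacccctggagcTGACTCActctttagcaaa
The motif TGANTCA, which reads TGANTCA again on the other strand, was found in 5.36% of the 17991 upstream windows of 250 bases of all tested genes, in 7.98% of those of the DEGs higher and in 6.45% of those of the DEGs lower. A RefSeq promoter was matched by symbol for 14320 of the 18188 genes. These matches describe letters and not binding.

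AP-1 and other immediate early factors, which are switched on within minutes by growth factors and stress, were higher 24 h after the clamp was released. Of 28 genes 18 were higher and none lower (median log2 difference 1.23). Fosl1, the AP-1 subunit FRA1, was 0.00, 0.04 and 0.09 FPKM in sham and 13.3, 10.8 and 11.8 FPKM at 28 min. Egr1, a zinc finger factor of the early growth response, was 3.31, 1.71 and 3.54 FPKM against 40.4, 49.7 and 61.4 FPKM. Fos itself was 0.61, 0.38 and 0.73 FPKM against 5.95, 6.17 and 20.1 FPKM, so 1 of the ischemic kidneys was well above the other two. The more abundant members Jund and Ier3 had log2 differences of 0.67 and 0.71 and no call. Jun and Atf3, chosen after their values were seen, had log2 differences of 1.46 and 1.81.

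Genes of the proximal tubule moved the other way. Of 50 solute carriers of the proximal tubule 24 were DEGs lower and none higher (background 4.21% lower), with a median log2 difference of -0.94. Slc34a1, the sodium-phosphate cotransporter of the brush border (chromosome 13, 55399622 to 55414695), was 2377, 2272 and 2028 FPKM in sham and 667, 777 and 759 FPKM at 28 min, a log2 difference of -1.88 (SE 0.18, adjusted p = 8.6e-08). Slc7a13, an amino acid exchanger of the late proximal tubule, was 316, 235 and 161 FPKM against 7.53, 5.85 and 8.73 FPKM, and the organic anion carriers Slc22a7, Slc22a19 and Slc22a30 fell by 4.49, fell by 3.83 and fell by 2.63 on the log2 scale. The list was not uniform. Slc13a1, the sodium-sulfate cotransporter, was 151, 265 and 241 FPKM in sham and 235, 273 and 230 FPKM at 28 min, with overlapping groups and a log2 difference of 0.24. Slc22a6 and Slc13a3, which take up organic anions and dicarboxylates at the basal side, had log2 differences of -0.24 and -0.28 and no call. Slc17a1, a phosphate and urate carrier, had a log2 difference of -0.95, just inside the fold threshold.

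Brush border and endocytosis genes followed with 10 of 23 lower and none higher (median log2 difference -0.84). The subunits of meprin, a protease of the brush border, both fell. Mep1b went from 127, 105 and 89.5 FPKM to 1.5, 1.68 and 1.78 FPKM, and Mep1a from 762, 743 and 677 FPKM to 136, 142 and 140 FPKM. Their log2 differences were -5.33 (SE 0.43) and -2.40 (SE 0.18). Ace, the angiotensin-converting enzyme, was 65.6, 61.6 and 60 FPKM against 14.9, 15.7 and 17.4 FPKM. Lrp2, the endocytic receptor megalin, which was chosen after its values were seen, was 159, 169 and 156 FPKM against 50.4, 56.6 and 59.7 FPKM. Ggt1, the gamma-glutamyltransferase of the brush border, had a log2 difference of -0.98 and so missed the fold threshold at an adjusted p of 4.4e-09 (-1.05 with a call without sham replicates 2 and 3), and Pdzk1ip1, a membrane protein of the same cells, had one of -0.23. Kap, an androgen-regulated protein of proximal tubule cells and the most abundant transcript of the sham kidneys, was 49644, 47741 and 47048 FPKM in sham and 6470, 6439 and 7975 FPKM at 28 min. It took 8.68% to 9.26% of all summed FPKM in sham and 1.19% to 1.45% after 28 min.

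Of 24 transcription factors listed for the proximal tubule, which include general metabolic and developmental factors, 3 (12.5%, against 4.21% of all genes) were lower and none higher. The median log2 difference was -0.35. By the adjusted p-value alone 13 of the 24 were lower (23.6% of all genes), and 14 were lower without overlap between the groups (21.4% of all genes). The 3 DEGs were Esrrb (17.1, 14.0 and 13.1 FPKM against 2.73, 2.59 and 2.87 FPKM), an estrogen-related receptor, Ppargc1a, the coactivator of mitochondrial biogenesis (log2 difference -1.17), and Lhx1, a factor of kidney development (-1.09, and -0.95, inside the fold threshold, when sham replicates 2 and 3 were left out). Hnf4a, the nuclear receptor that drives proximal tubule differentiation, was 183, 200 and 214 FPKM in sham and 173, 171 and 177 FPKM at 28 min, with a log2 difference of -0.08 (SE 0.10), which was 0.04 without sham replicates 2 and 3.

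Genes of the downstream segments were lower as well. Of 32 genes of loop and distal tubule transport 17 were lower and 1 was higher (median log2 difference -1.12). Egf, the growth factor precursor made by the thick ascending limb and distal convoluted tubule (chromosome 3, 129677574 to 129755322), was 301, 375 and 259 FPKM in sham and 4.94, 5.27 and 4.37 FPKM at 28 min, a log2 difference of -5.78 (SE 0.60, adjusted p = 2.2e-07). Slc12a1, the sodium-potassium-chloride cotransporter that loop diuretics block, was 400, 324 and 303 FPKM against 32.8, 35.2 and 28.8 FPKM. The potassium channel Kcnj1, the chloride channel subunit Bsnd and the phosphatase inhibitor Ppp1r1b were lower by log2 differences of -1.83, -1.52 and -3.79. Umod, uromodulin, chosen after its values were seen, was 1247, 1405 and 1255 FPKM in sham and 483, 741 and 502 FPKM at 28 min, a smaller difference (-1.43, SE 0.38) than those of Egf and Slc12a1. The call of Umod was lost without sham replicates 2 and 3 (-1.37, limma adjusted p = 0.066). The sodium pump subunit Atp1b1 had a log2 difference of -0.36 and no call. The 1 gene that was higher was Cldn14, a tight junction protein that blocks paracellular calcium uptake in the thick ascending limb, at 0.15, 0.25 and 0.00 FPKM in sham and 1.45, 5.17 and 5.06 FPKM at 28 min.

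Among distal convoluted tubule markers the calcium-binding proteins Pvalb (30.6, 26.1 and 15.8 FPKM against 0.06, 0.49 and 0.43 FPKM) and Calb1 (181, 154 and 122 FPKM against 56.0, 33.3 and 23.3 FPKM) fell, as did Trpm6, the magnesium channel (log2 difference -1.14). The thiazide-sensitive cotransporter Slc12a3 was 217, 224 and 206 FPKM against 134, 126 and 99.9 FPKM, without a call (log2 difference -0.79). Of 26 collecting duct genes 11 were lower and none higher (median -0.71). Aqp2, the vasopressin-regulated water channel, did not pass (295, 178 and 231 FPKM against 157, 173 and 137 FPKM, log2 difference -0.50, adjusted p = 0.41), while the basolateral water channels Aqp3 and Aqp4 and the vasopressin receptor Avpr2 had log2 differences of -1.31, -1.56 and -1.50. Of these, Aqp4 had an adjusted p of 0.029 and lost its call without sham replicate 1, sham replicate 3 or replicate 1 of the 28 min group, and without sham replicates 2 and 3 (-1.71). In intercalated cells the anion exchangers Slc4a1 and Slc26a4 fell by 2.44 and fell by 1.33 on the log2 scale. Nccrp1, a sugar-binding protein whose role in the kidney is not well described, was among the largest decreases, at 181, 67.5 and 82.9 FPKM against 1.49, 0.98 and 1.28 FPKM.

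**Figure D3:**
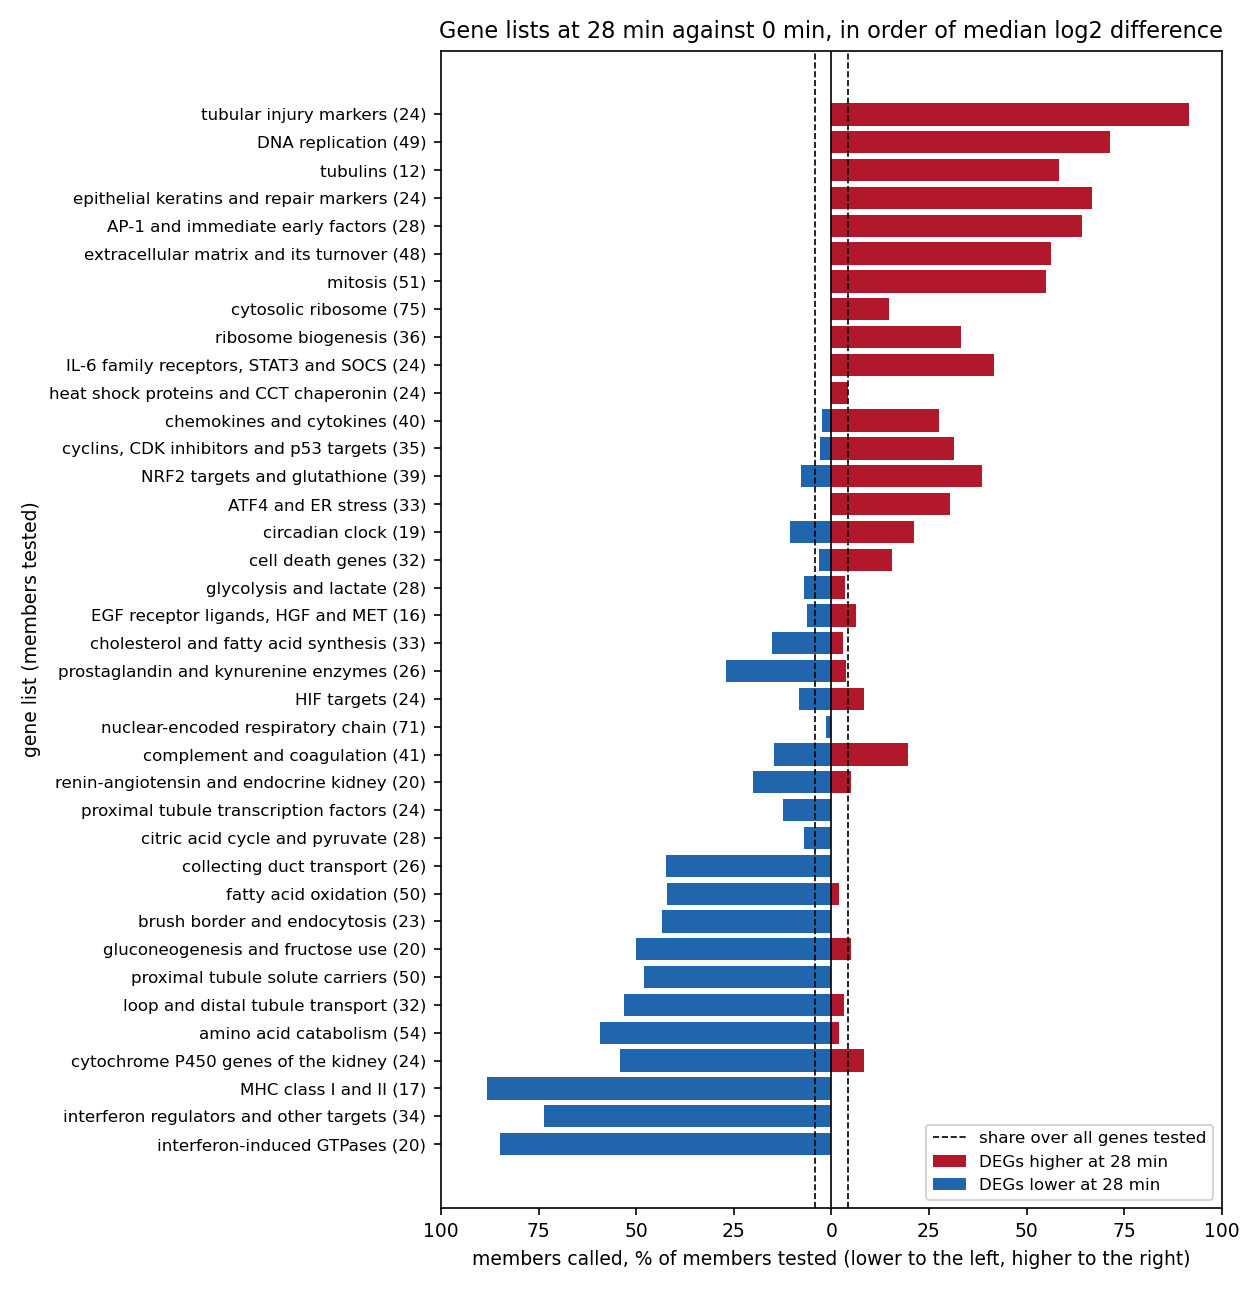
Share of the tested members of each gene list that were DEGs higher (red, to the right) or lower (blue, to the left) at 28 min, in percent of the members tested, which are given in brackets. Lists are in order of their median log2 difference, and dashed lines mark the shares over all genes tested, 4.27% higher and 4.21% lower. The lists were chosen with earlier results of these data known, so the shares are a description.

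Calls among metabolic genes differed in number between pathways. Amino acid catabolism had the most calls of the metabolic lists, with 32 of 54 genes lower and 1 higher (median log2 difference -1.2), and 0 higher without sham replicate 3, without replicate 1 of the 28 min group or without sham replicates 2 and 3. Hpd, a dioxygenase of tyrosine breakdown, was 69.4, 59.99 and 77.4 FPKM in sham and 2.24, 1.62 and 1.95 FPKM at 28 min. Aadat, an aminotransferase of the kynurenine and lysine pathways, and Hao2, a peroxisomal hydroxyacid oxidase, fell by 3.02 and fell by 2.83 on the log2 scale. Glul, glutamine synthetase, and Dao, D-amino acid oxidase, had log2 differences of -0.83 and -0.50 without a call.

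Of 50 fatty acid oxidation genes 21 were lower and 1 was higher (median -0.78). Acsm3, a medium-chain acyl-CoA synthetase, was 290, 224 and 214 FPKM against 21.1, 12.95 and 20.4 FPKM. Bdh1, which interconverts ketone bodies, fell by 2.50 and Ehhadh, the peroxisomal bifunctional enzyme, fell by 2.43 on the log2 scale, while Hadh, a mitochondrial dehydrogenase of the pathway, had a log2 difference of -0.78 and no call. Cyp4a12b, a fatty acid hydroxylase, was the gene that was higher (25.7, 24.9 and 23.6 FPKM against 77.4, 66.3 and 84.6 FPKM), and near-identical copies in its cluster can share its reads. Of 20 genes of gluconeogenesis and fructose use 10 were lower and 1 was higher. Fbp1, fructose bisphosphatase, was 609, 669 and 595 FPKM against 198, 190 and 175 FPKM, and G6pc, glucose-6-phosphatase, was 182, 152 and 79.6 FPKM against 46.3, 29.9 and 27.6 FPKM. Gatm, the first enzyme of creatine synthesis, had a log2 difference of -1.83. Pck1, the gluconeogenic enzyme PEPCK, overlapped between the groups (469, 530 and 347 FPKM against 636, 407 and 300.4 FPKM). The isoenzyme Fbp2 was the gene that was higher, with a log2 difference of 1.10.

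In glycolysis and lactate metabolism 1 of 28 genes was higher (3.57%, against 4.27% of all genes) and 2 were lower (7.14%, against 4.21%), at a median of 0.08. By the adjusted p-value alone 12 of the 28 were higher and 6 lower, against 24.5% and 23.6% of all genes. Hk2, an inducible hexokinase, was 0.10, 0.09 and 0.31 FPKM against 1.51, 1.80 and 1.78 FPKM. Pgam2, the muscle form of phosphoglycerate mutase (chromosome 11, 5801637 to 5803796), was 74.0, 63.7 and 66.5 FPKM against 25.5, 27.3 and 22.1 FPKM, a log2 difference of -1.52 (SE 0.27, adjusted p = 0.00011), and the aldolase Aldoc had one of -1.83. The abundant glycolytic enzymes Gapdh and Aldoa had log2 differences of 0.25 and 0.50. In the citric acid cycle 2 of 28 genes (7.14%) were lower and 21 were lower by the adjusted p-value alone (23.6% of all genes), at a median of -0.37. The 2 genes were Mdh1 and Idh2, the cytosolic malate and mitochondrial isocitrate dehydrogenases (-1.34 and -1.19). Of 71 nuclear-encoded subunits of the respiratory chain only Cox7a1, a cytochrome oxidase subunit, was called (-1.66). By the weaker criterion, 47 of the 71 had an adjusted p-value below 0.05 in the lower direction against 23.6% of all genes, at a median log2 difference of -0.32, with Atp5b of the ATP synthase at -0.63 and Cox8a at -0.42.

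Of 24 kidney P450 genes 13 were lower and 2 higher (median -1.27). Cyp7b1, an oxysterol hydroxylase, was 126, 153 and 136 FPKM against 2.88, 1.96 and 3.04 FPKM. Cyp2d9 and Cyp2d12, male-biased steroid hydroxylases of a multigene cluster in which reads can be shared, fell by 3.57 and fell by 3.26 on the log2 scale. The steroid dehydrogenase Akr1c14 and the methyltransferase-like Mettl7a2 were among the largest decreases, with log2 differences of -5.21 and -4.62. Cyp24a1, which inactivates vitamin D, went the other way, at 29.2, 14.9 and 13.3 FPKM in sham and 98.7, 192 and 305 FPKM at 28 min. The spread between the ischemic kidneys was wide but did not reach the sham values. In the renin-angiotensin and endocrine list 4 of 20 genes were lower (20%, against 4.21% of all genes), 1 was higher (5%, against 4.27%) and 15 had no call. Agt, angiotensinogen, was 67.5, 62.8 and 72.6 FPKM against 13.4, 17.4 and 17.7 FPKM, and Kl, the FGF23 coreceptor klotho, was 186, 167 and 160 FPKM against 41.0, 47.5 and 44.7 FPKM. Of 26 prostaglandin and kynurenine enzymes and receptors 7 were lower (26.9%, against 4.21% of all genes) and 1 higher (3.85%, against 4.27%). Among them the kynurenine enzymes Ido2 and Haao had log2 differences of -2.46 and -1.80. In cholesterol and fatty acid synthesis 5 of 33 genes were lower (15.2%, against 4.21% of all genes) and 1 was higher (3.03%, against 4.27%). Scd1, a desaturase, fell by 3.01 and Cyp51, of sterol synthesis, fell by 2.26 on the log2 scale.

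Of 39 NRF2 targets and glutathione genes 15 were higher and 3 lower (median 0.41), and 1 was lower without sham replicate 2 or without replicate 1 of the 28 min group. Hmox1, heme oxygenase 1, was 18.8, 30.0 and 36.1 FPKM in sham and 289, 258 and 344 FPKM at 28 min. The metallothionein Mt2 was 69.5, 54.0 and 107 FPKM against 998, 922 and 874 FPKM. Gpx1 and Cat, which remove hydrogen peroxide, were lower by log2 differences of -1.04 and -1.03, and both calls were lost without quantile normalization (-0.83 and -0.88). The normalization also set the result for the most abundant transcripts. Fth1, the ferritin heavy chain, was 5205, 5375 and 5707 FPKM in sham and 10553, 9139 and 10203 FPKM at 28 min, but its log2 difference was 0.00 after quantile normalization and 0.87 without it. The ferritin light chain Ftl1 had 0.14 and 1.06, and Gpx3, the secreted glutathione peroxidase, had 0.28 after quantile normalization and -0.51 without it, on FPKM values that went from 25809, 27813 and 27234 to 18487, 19353 and 18913.

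In the ATF4 and endoplasmic reticulum stress list 10 of 33 genes were higher and none lower. The calls were in amino acid synthesis and the ATF4 branch, with Phgdh, of serine synthesis, at 6.66, 5.95 and 9.08 FPKM against 45.5, 39.5 and 49.9 FPKM, Asns, asparagine synthetase (log2 difference 1.94), and the factor Atf5 (2.16). The chaperones Hspa5 and Calr had log2 differences of -0.14 and -0.23, of which the first was 0.08 without sham replicates 2 and 3 and the second 0.01 without quantile normalization. Of 24 heat shock proteins and CCT subunits only Hspb1 (HSP27) was called higher (4.17%, against 4.27% of all genes), and 4 were called without sham replicate 3. By the adjusted p-value alone 14 of the 24 were higher and 1 lower, against 24.5% and 23.6% of all genes. Hspb1 was at 16.2, 13.4 and 21.4 FPKM against 98.7, 76.6 and 93.7 FPKM, and Hspa8 had a log2 difference of -0.15. Among HIF targets 2 of 24 were higher (8.33%, against 4.27% of all genes) and 2 lower (8.33%, against 4.21%). Plin2, which coats lipid droplets, and Adm, adrenomedullin, had log2 differences of 2.25 and 1.29, while Ndrg1 and Car9 had log2 differences of -1.69 and -1.18, of which the second was -0.98 without a call when sham replicate 1 was left out.

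Of 35 cyclins, CDK inhibitors and p53 targets 11 were higher and 1 lower. Gdf15, a stress-induced cytokine, was 4.25, 4.66 and 10.2 FPKM against 67.6, 52.2 and 80.3 FPKM. Sfn, a 14-3-3 protein, and Plk3, a stress-response kinase, had log2 differences of 2.87 and 2.57, and the CDK inhibitor Cdkn1a (p21), chosen after its values were seen, was 8.93, 7.32 and 8.28 FPKM against 50.3, 40.8 and 48.9 FPKM. Ccng2, a cyclin of quiescent cells, was lower (-1.16). Of 32 cell death genes 5 were higher (15.6%, against 4.27% of all genes) and 1 lower (3.12%, against 4.21%). Their median log2 difference was 0.13, and 0.26 without sham replicates 2 and 3. Ripk3, the kinase of necroptosis, was 0.41, 0.23 and 0.60 FPKM against 3.6, 3.22 and 3.17 FPKM, Acsl4, which makes the lipids that ferroptosis oxidizes, had a log2 difference of 1.43, and Bcl2l1, the survival protein BCL-XL, one of 1.13. Gpx4, which protects from ferroptosis, had a log2 difference of 0.08. Zbp1, a sensor that engages Ripk3 and is itself induced by interferon, was the gene that was lower, but it was 1.19 FPKM in sham replicate 1 against 11.5 and 12.3 in the others and 0.60 to 2.05 FPKM at 28 min, and its difference without sham replicates 2 and 3 was -0.05.

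Inflammatory genes rose in part. Of 40 chemokines and cytokines 11 were higher and 1 lower (median 0.42). Cxcl1 was 0.83, 1.48 and 3.6 FPKM against 48.7, 47.6 and 57.3 FPKM. The 2 ligands of the macrophage receptor CSF1R, Csf1 and Il34, were higher by log2 differences of 2.11 and 2.07, with Csf1 at 2.02, 5.42 and 6.71 FPKM against 20.2, 26.2 and 28.0 FPKM. Ccl2, the monocyte chemokine, chosen after its values were seen, had a log2 difference of 1.72. Cxcl12, which retains CXCR4-bearing cells, was lower, at 61.7, 61.6 and 64.0 FPKM against 12.02, 18.6 and 13.6 FPKM. Il6 itself was 0.00, 0.00 and 0.72 FPKM in sham and 0.32, 0.26 and 0.38 FPKM at 28 min, so the groups overlapped and no difference was detectable at this level (log2 difference 0.13, SE 0.21, adjusted p = 0.65). Ptgs2, the inducible cyclooxygenase, was 0.11, 0.17 and 1.15 FPKM against 0.79, 0.87 and 0.77 FPKM and had no call (log2 difference 0.33, adjusted p = 0.17, and 0.73 without sham replicates 2 and 3, again without a call). In both genes sham replicate 3 was the highest of the 6 kidneys.

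The wider IL-6 family list had 10 of 24 genes higher and none lower (median 0.63). The STAT3 target Lrg1, a secreted glycoprotein, was 1.88, 2.01 and 7.18 FPKM against 30.9, 35.0 and 31.5 FPKM. Stat3 had a log2 difference of 0.77 and no call, and 1.23 with a call without sham replicates 2 and 3. The 3 fibrinogen chains, acute-phase targets of this pathway, all rose, with log2 differences of 4.21 for Fgb, 2.67 for Fgg and 2.15 for Fga. For Fgg sham replicate 3 stood at 80.1 FPKM against 14.3 and 39.0 in the other sham kidneys and 264, 241 and 215 FPKM at 28 min. In the complement and coagulation list as a whole 8 of 41 genes were higher (19.5%, against 4.27% of all genes) and 6 lower (14.6%, against 4.21%). The protease inhibitors Serpina1d, Serpina1a and Serpina1f, close paralogs that can share reads, fell by 3.85, fell by 3.10 and fell by 2.67 on the log2 scale.

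Of 20 macrophage and monocyte markers 5 were higher (25%, against 4.27% of all genes) and 1 was lower (5%, against 4.21%), and their summed FPKM was 122 to 143 in sham and 350 to 403 at 28 min. The list did not move together. Lgals3 (25.5, 25.4 and 31.8 FPKM against 243, 209 and 281 FPKM), which tubule cells also express, Cd68 (log2 difference 2.37) and Chil3 (1.69) were higher, while Csf1r, the receptor that defines the lineage, was lower (18.3, 13.7 and 15.3 FPKM against 6.45, 5.23 and 5.10 FPKM) and the complement genes C1qa and C1qb had log2 differences of -0.70 and -0.77. None of 13 neutrophil markers was called, at a summed FPKM of 5.49 to 12.4 in sham and 16.2 to 20.4 at 28 min, none of 15 T and NK cell markers (3.93 to 9.88 against 1.88 to 2.03), none of 6 B cell markers, none of 8 dendritic cell markers (4.69 to 5.40 against 3.41 to 4.18) and none of 16 endothelial markers. Over all genes 4.27% were called higher and 4.21% lower, so lists this short could hold no DEG at the background share too. All 15 T and NK cell markers had log2 differences below 0. By the adjusted p-value alone 10 of them were lower, against 23.6% of all genes. With a pseudocount of 0.1 FPKM 7 of the 15 were called lower, against 1304 of the 18188 genes tested. That pseudocount also gave 2 of the 13 neutrophil markers higher and 1 lower, against 1322 and 1304 of all genes. Of the dendritic cell markers 2 of 8 and of the B cell markers 1 of 6 were then called lower, and none higher. Between 28 and 26 min 2 of the 13 neutrophil markers were called higher and 0 lower (0.44% and 1.06% of all genes). The part of these cells in the results above was not tested.

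Interferon-induced genes and MHC genes had some of the highest shares of DEGs lower, and these rest in part on the sham kidneys. Interferon-induced GTPases, guanylate-binding and immunity-related proteins that attack intracellular microbes, were lower for 17 of 20 genes (median log2 difference -2.78), interferon regulators and other targets for 25 of 34 (-1.74), and MHC class I and II genes for 15 of 17 (-1.58), against 4.21% of all genes tested. Gbp6 was 17.7, 466 and 291 FPKM in sham and 0.69, 1.01 and 0.61 FPKM at 28 min. Tgtp1 was 9.30, 613 and 535 FPKM against 2.09, 2.62 and 1.06 FPKM, Iigp1 6.11, 470 and 361 FPKM against 2.11, 2.77 and 1.82 FPKM, and Igtp 17.4, 503 and 363 FPKM against 4.96, 7.28 and 4.59 FPKM. Sham replicate 1 lay between the other sham kidneys and the ischemic ones in each of these genes. The near-identical copies of these families can share reads.

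When sham replicates 2 and 3 were left out, so that the 1 remaining sham kidney was assumed to vary like the other groups, 9 of the 20 GTPases, 2 of the 34 regulators and targets and 10 of the 17 MHC genes were still lower, with median log2 differences of -0.57, -0.08 and -1.08. Gbp6 kept a log2 difference of -3.48 and Gbp10 one of -2.24, while Tgtp1, Iigp1 and Igtp had -1.94, -1.24 and -1.61. Irf7, a master regulator of type I interferon, was 18.7, 143 and 152 FPKM in sham and 8.06, 5.86 and 4.59 FPKM at 28 min, with log2 differences of -3.47 with all sham kidneys and -1.60 with replicate 1 alone. The immunoproteasome subunits Psmb8 and Psmb9 went from -2.80 and -2.78 to -0.92 and -0.54 without a call, and Psmb10 and Tapbp, without a call in the first place, from -0.78 and -0.78 to 0.83 and 0.14. Against sham replicates 2 and 3, without replicate 1, Psmb10 and Tapbp were called lower (-1.59 and -1.23). In a fit of the 2 groups alone, in which the sham spread was not shared with the other groups, 6 of the GTPases and 4 of the regulators were called.

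MHC genes were lower against every sham kidney, with FPKM values that did not overlap for all 17 (21.4% of all genes tested were lower in this way). Cd74, the invariant chain that guides MHC class II (chromosome 18, 60803849 to 60812652), was 674, 622 and 624 FPKM in sham and 23.9, 43.9 and 45.1 FPKM at 28 min, and its log2 difference was -4.25 with all sham kidneys and -4.30 with replicate 1 alone. H2-Ab1 was 249, 392 and 400 FPKM against 17.7, 30.0 and 28.5 FPKM and H2-Aa 112, 184 and 180 FPKM against 6.01, 8.91 and 12.2 FPKM. B2m, the light chain of MHC class I, chosen after its values were seen, was 1332, 2090 and 2127 FPKM against 281, 332 and 287 FPKM. The markers of dendritic cells, T cells and B cells given above were low in all 6 kidneys, and their part in the MHC difference was not tested.

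**Figure D4:**
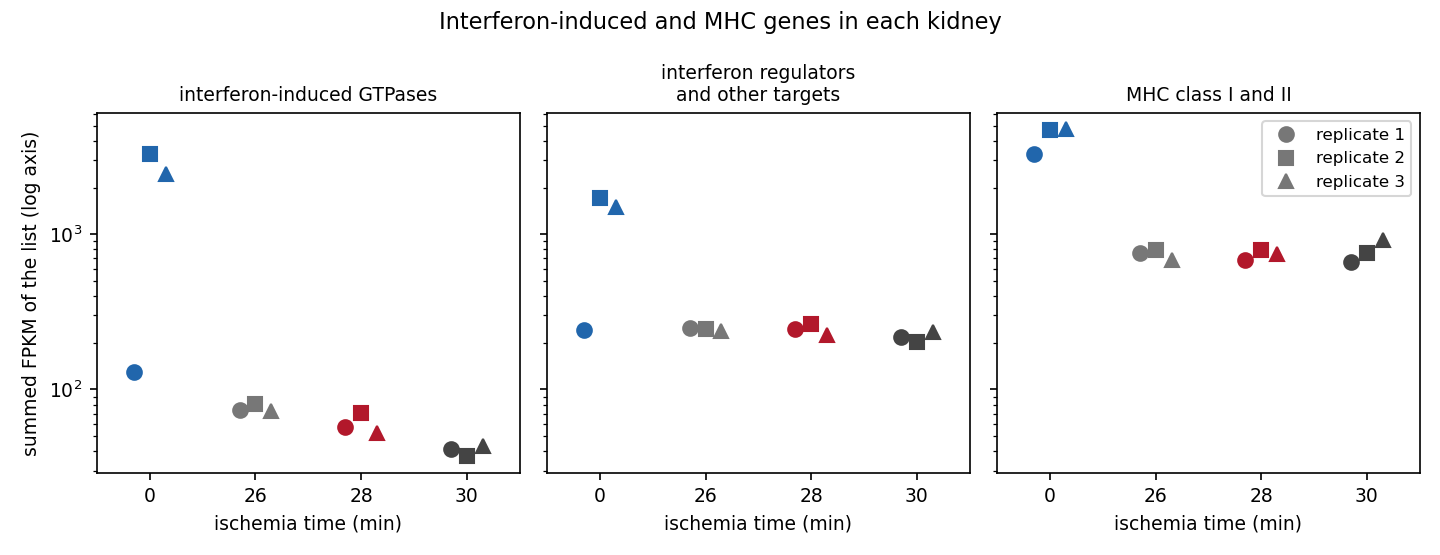
Summed FPKM (y axis, log scale) of 3 gene lists in each kidney of the 0, 26, 28 and 30 min groups (x axis), with a marker for each replicate. In the left panel sham replicate 1 lies at 129 while the other sham kidneys lie at 3311 and 2456, and in the right panel all 3 sham kidneys lie above every ischemic kidney.

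A run of letters that interferon regulatory factors and ISGF3 are known to bind was frequent upstream of these genes. The windows show bases upstream of the RefSeq transcript start (GRCm38.p6, on the strand of the gene), with the match in capitals. It was searched as GAAA, any 2 bases and GAAA again, or as the reverse complement TTTC, any 2 bases and TTTC. Tgtp1 and Igtp are shown because they were among the largest decreases and held a match. Gbp6 and Gbp10, also among the largest decreases, had no match or no RefSeq promoter. Irgm2, Gbp2 and B2m, chosen after their values were seen, show the match in a second GTPase family and in an MHC class I gene. They lie at chr11:48992302-48992335 on the minus strand for Tgtp1, and on the plus strand at chr11:58199510-58199543 for Igtp, chr11:58214901-58214934 for Irgm2, chr3:142620592-142620625 for Gbp2 and chr2:122147536-122147569 for B2m.
Tgtp1: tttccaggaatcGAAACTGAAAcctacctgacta
Igtp: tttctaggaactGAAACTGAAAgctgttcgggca
Irgm2: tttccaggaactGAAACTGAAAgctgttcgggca
Gbp2: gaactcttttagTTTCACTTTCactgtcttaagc
B2m: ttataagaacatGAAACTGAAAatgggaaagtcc
The motif was found in 2.72% of the upstream windows of all tested genes, in 2.17% of those of the DEGs higher and in 6.85% of those of the DEGs lower, which include the genes of these lists. In the interferon and MHC lists it was found in 38.3% of the windows whatever the call (23 of 60), and in 42.6% of those of the DEGs lower (20 of 47). Irgm2, at 11.2, 171 and 134 FPKM in sham and 5.13, 5.66 and 4.42 FPKM at 28 min, and Gbp2, at 7.97, 148 and 61.8 FPKM and 3.59, 4.90 and 3.0 FPKM, had log2 differences of -3.49 and -3.25, which were -1.13 and -1.02 without sham replicates 2 and 3.

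Genes of DNA replication were higher almost throughout. Of 49 genes 35 were higher and none lower (median log2 difference 1.56), and 48 had FPKM values that did not overlap between the groups, against 35.5% of all genes. Uhrf1, which carries DNA methylation through replication (chromosome 17, 56303337 to 56323486), was 1.92, 1.28 and 3.07 FPKM in sham and 29.7, 35.9 and 37.7 FPKM at 28 min, a log2 difference of 3.39 (SE 0.43, adjusted p = 2.1e-06). Rrm2, a subunit of ribonucleotide reductase, was 4.28, 2.03 and 3.66 FPKM against 30.8, 35.5 and 35.2 FPKM, and Chaf1b, a histone chaperone of the replication fork, had a log2 difference of 2.70. Pcna, the sliding clamp, chosen after its values were seen, was 34.8, 30.2 and 39.4 FPKM against 109, 122 and 126 FPKM. Rpa1 and Rfc2, subunits of replication proteins A and C, had log2 differences of 0.58 and 0.31 and no call.

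Mitotic genes had fewer calls. Of 51 genes 28 were higher and none lower (median 1.04), and 16 were higher without sham replicates 2 and 3. Top2a, topoisomerase II, was 1.14, 0.67 and 1.30 FPKM against 5.68, 7.30 and 7.01 FPKM, Ccna2, cyclin A, 1.51, 1.09 and 1.04 FPKM against 5.82, 6.95 and 7.17 FPKM, and Aurkb, the kinase of the chromosomal passenger complex, had a log2 difference of 1.72. Mki67, chosen after its values were seen, was 1.08, 0.39 and 0.62 FPKM against 2.98, 3.61 and 3.95 FPKM, and its call was lost without sham replicates 2 and 3 (log2 difference 1.01, limma adjusted p = 0.17). Pttg1, securin, was the abundant exception, at 56.5, 58.0 and 57.8 FPKM against 38.4, 43.1 and 32.7 FPKM, with no call.

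Of 12 tubulins 7 were higher (median 1.48), among them Tubb5 (28.8, 24.1 and 32.2 FPKM against 150, 153 and 155 FPKM), Tubb6 (log2 difference 1.96) and Tubb2b (1.91). Of 75 genes of the cytosolic ribosome 11 were called higher, but all 75 were above sham without overlap and 73 had an adjusted p-value below 0.05, against 35.5% and 24.5% of all genes. The median log2 difference was 0.81, near the fold threshold, so the count moved with the settings and was 26 without quantile normalization, 19 without sham replicate 3 and 20 without sham replicates 2 and 3. Rpl12 was 266, 253 and 301 FPKM against 905, 855 and 930 FPKM, Rps12 and Rplp1 had log2 differences of 1.46 and 1.34, and Rpl28, without a call, one of 0.73. The summed FPKM of the list was 4.90% to 5.32% of all FPKM in sham and 9.54% to 9.93% at 28 min. Of 36 ribosome biogenesis genes 12 were higher and none lower (median 0.76), with the small nucleolar RNP proteins Nop58 (10.6, 10.8 and 13.7 FPKM against 37.8, 45.2 and 47.3 FPKM), Nop56 (1.30) and Nhp2 (1.30).

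Of 48 genes of the extracellular matrix and its turnover 27 were higher and none lower (median 1.06). Plaur, the urokinase receptor, was 2.11, 2.09 and 4.64 FPKM against 41.8, 42.3 and 54.9 FPKM. The fibrillar collagens Col1a1 (5.08, 2.57 and 3.79 FPKM against 27.6, 40.1 and 33.7 FPKM) and Col3a1 (log2 difference 2.23) and the smooth muscle actin Acta2 (1.85) were higher. Among 12 fibroblast and pericyte markers 3 were higher (25%, against 4.27% of all genes) and 1 lower (8.33%, against 4.21%). Their summed FPKM was 91.2 to 104 in sham and 132 to 195 at 28 min. The marker that was lower was Dcn, decorin (14.7, 19.1 and 19.1 FPKM against 3.87, 6.73 and 5.19 FPKM). Hbegf, an EGF receptor ligand, was 4.86, 3.80 and 7.17 FPKM against 20.4, 25.2 and 28.7 FPKM, opposite to Egf. Of 19 circadian clock genes 4 were higher (21.1%, against 4.27% of all genes) and 2 lower (10.5%, against 4.21%), and 2 were higher without sham replicate 1. Arntl (BMAL1) was 8.38, 5.41 and 5.78 FPKM against 0.80, 0.39 and 0.98 FPKM and Nr1d1 (REV-ERB alpha), which represses Arntl, had a log2 difference of -1.14, while Dbp, Per2 and Bhlhe40 were higher by 1.17, 1.17 and 1.46 (Per2 was at 0.92 without a call when sham replicate 1 was left out), and the hour of tissue collection was not given in the sources used here.

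The 28 min group was next set against its neighbours in ischemia time, with all 9 groups in 1 fit. Between 28 and 26 min 80 genes (0.44%) were DEGs higher and 192 (1.06%) DEGs lower at 28 min, and between 30 and 28 min 73 (0.401%) were higher and 118 (0.649%) lower at 30 min. The last comparison was fragile. It gave 0 DEGs in a limma fit of those groups alone, in which 4206 genes had an unadjusted p-value below 0.05, and 83 without replicate 3, 338 without replicate 1 of the 30 min group and 126 without replicate 2 of the 28 min group.

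Tubule genes made up many of the DEGs lower between 28 and 26 min. The proximal tubule solute carriers had 14 of 50 lower and none higher (median log2 difference -0.75), amino acid catabolism 13 of 54, loop and distal tubule transport 9 of 32 with 1 higher, and fatty acid oxidation 5 of 50. Mep1b was 23.2 FPKM in the mean of the 26 min group and 1.65 FPKM in that of the 28 min group, Slc34a1 1844 and 734 FPKM, Egf 57.7 and 4.86 FPKM, and Scd1 34.0 and 5.17 FPKM. The log2 differences of these genes were -3.15, -1.50, -3.23 and -2.54. Pgam2 was 62.7 FPKM at 26 min and 25 FPKM at 28 min, with a log2 difference of -1.24 (SE 0.27, adjusted p = 0.0035). Of the interferon GTPases, interferon regulators and MHC genes none was called between 28 and 26 min. With 0.44% of all genes called higher and 1.06% lower, this is near the background share.

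The genes that were higher at 28 than at 26 min included 7 of 24 injury markers and 4 of 24 keratins and repair markers. Krt20 was 15.7 FPKM at 26 min and 80.9 FPKM at 28 min, Fosl1 1.17 and 12 FPKM, Hmox1 80.8 and 297 FPKM, and Plin2 82.5 and 253 FPKM. Havcr1 and Lcn2 were also higher in the mean (557 and 1273 FPKM, 280 and 839 FPKM), but their log2 differences of 1.28 and 1.67 did not pass (adjusted p = 0.26 and 0.15). Cxcl1 and Timp1 had log2 differences of 0.33 and 0.49 between 28 and 26 min.

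DNA replication was higher against sham at 28 min and lower again at 30 min. None of its 49 genes was called between 28 and 26 min, near the share over all genes (0.44% higher and 1.06% lower). Between 30 and 28 min 24 of the 49 were lower at 30 min (median log2 difference -0.98), against 0.649% of all genes. Uhrf1 was 20.9 FPKM at 26 min, 34.4 FPKM at 28 min and 12.3 FPKM at 30 min, and Rrm2 35.5, 33.8 and 12.5 FPKM. Of 51 mitotic genes 4 were lower at 28 than at 26 min and 5 were lower at 30 than at 28 min, with the mean of Top2a at 10.9, 6.66 and 2.52 FPKM. The proximal tubule solute carriers had a further 7 of 50 lower at 30 min, among them the sulfate carrier Slc13a1, which had no call against sham at 28 min and was 447 FPKM at 26 min, 246 FPKM at 28 min and 109 FPKM at 30 min. Cyp24a1 and Cldn14 were lower at 30 than at 28 min, by log2 differences of -1.45 and -1.19.

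**Figure D5:**
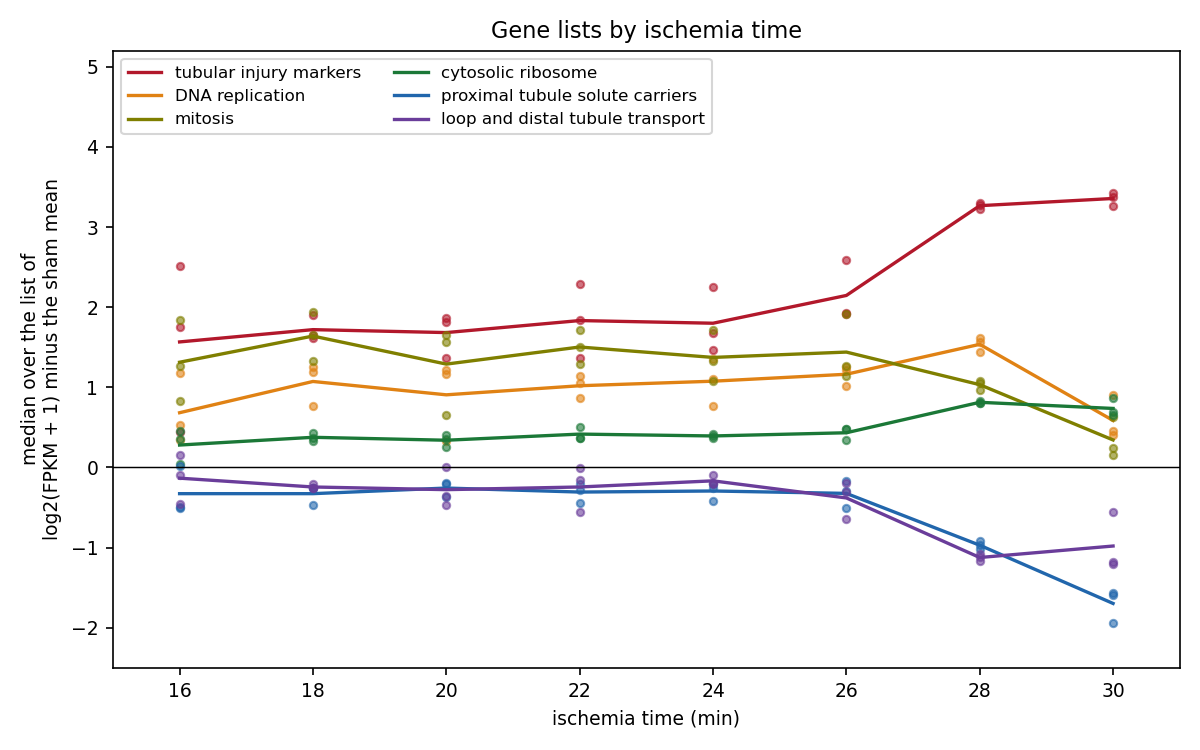
Median over each of 6 gene lists of log2(FPKM + 1), quantile normalized, minus the mean of the sham kidneys (y axis), by ischemia time (x axis), with 1 point a kidney and lines through the means of 3 kidneys. The tubular injury markers lie at 2.15 at 26 min and at 3.27 at 28 min, and the proximal tubule solute carriers at -0.32, -0.97 and -1.70 at 26, 28 and 30 min.

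Medians over the lists, taken in each kidney and averaged over the 3 kidneys of a group, show the shorter ischemia times. They differ slightly from the list medians above, with 3.27 against 3.20 for the tubular injury markers at 28 min. The averaged median difference from sham of these markers lay between 1.57 and 1.83 from 16 to 24 min, at 2.15 at 26 min and at 3.27 at 28 min. That of the proximal tubule solute carriers lay between -0.33 and -0.26 up to 26 min and at -0.97 at 28 min, and that of the cytosolic ribosome between 0.28 and 0.43 up to 26 min and at 0.81 at 28 min. The interferon-induced GTPases were at -2.67 at 16 min and at -2.83 at 28 min, and all these comparisons share the 3 sham kidneys.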

How the data were processed

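Left kidneys of mice with 0, 16, 18, 20, 22, 24, 26, 28 or 30 min of pedicle clamping were collected at 24 h, 3 mice at each time, and sequenced on DNBSEQ-G400. The deposited values are FPKM with 2 decimals for 19392 gene symbols in 27 columns. Every column was matched to 1 sample by its name, and 0 columns were left unmapped. The submitters' processing notes name Bowtie2, RSEM, DESeq2 and GRCm38.p6, without versions or roles. The study's methods speak of RPKM and of quantile normalization before limma, whereas the deposited FPKM values were not quantile normalized. Read counts were not used here and the absolute depth is unknown. Relative depth, from the smallest FPKM steps of 422 genes, was 0.981 to 1.02 over the 27 kidneys. Values well above the smallest of a gene were left out of it, so larger differences in depth could not show.

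FPKM values were transformed to log2(FPKM + 1), quantile normalized over the 27 kidneys and fitted in limma 3.58.1 (R 4.3.3) with 9 group means, so that all groups shared 1 estimate of the spread. Fold changes on this scale understate those of genes of low level. Genes above 0 FPKM in at least 3 kidneys (18188) were tested, p-values were two-sided and adjusted by the Benjamini-Hochberg method over all of them, and DEGs had an absolute log2 difference above 1 and an adjusted p below 0.05. The fit was run on simulated data for 28 against 0 min (18188 genes), where 199 of 200 genes changed by a log2 of 2 were recovered with 0 false calls. The simulated kidneys had independent normal noise with the same spread per gene in all groups. Changes were put only into genes with a sham mean above 3 on the log2 scale. The simulation therefore cannot show how often calls are false for genes of low level or for sham kidneys that differ from each other. Replicates were separate mice.

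The gene lists and members were chosen with earlier results of these data known. The text names the 12 largest increases and decreases among DEGs whose groups did not overlap (predicted genes left unnamed), up to 3 DEGs in each direction and up to 2 abundant genes without a call per list, the genes that the study measured by PCR, Kap and the most abundant genes. Other genes are said to be chosen after their values were seen. Some genes that this rule names are not reported here. Near-identical genes can share reads, so values of members of multigene families are uncertain. The alternatives used 0.1 FPKM as the pseudocount, left out quantile normalization or put TPM in its place, or used other filters, a fit of 2 groups alone, a variance trend, or a replicate block, or left out each kidney in turn or sham replicates 2 and 3 together. Promoter letters and positions came from RefSeq for GRCm38.p6, matched by symbol. Python 3.11.15, pandas 2.3.3 and matplotlib 3.10.9 were used.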

Additional observations from a re-analysis of the deposited data

How the results depend on the processing

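The 1542 DEGs between 28 and 0 min became 2626 with a pseudocount of 0.1 FPKM and lay between 1482 and 1641 when 1 kidney was left out. The 272 DEGs between 28 and 26 min became 515 with that pseudocount and lay between 197 and 364 when 1 kidney was left out. The 191 DEGs between 30 and 28 min became 425 with that pseudocount and 0 in a limma fit of those groups alone (4206 genes with an unadjusted p below 0.05), and lay between 83 and 338 when 1 kidney was left out. The other alternatives kept each count within 1.5 times. The cause of these changes was not tested.

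With the replicate number as a block the counts were 1543, 271 and 192, and no call of the 206 genes checked one by one changed. The numbers did not pair the samples, since deviations of same-numbered kidneys from their group means correlated at -0.0606, -0.035 and -0.019 across genes, and 0 of 6 kidneys correlated best with its own number.

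Of 3089 alternative values for these 206 genes, 3032 kept their direction and their call, 37 lost the call, 9 gained one and 11 changed sign. Those that changed sign all belonged to genes without a call. Without sham replicates 2 and 3 the log2 differences were 0.04 for Hnf4a, 0.08 for Hspa5, 0.83 for Psmb10 and 0.14 for Tapbp. Without quantile normalization they were -0.51 for Gpx3 and 0.01 for Calr, and with TPM in its place -0.52 for Gpx3. Leaving out 1 kidney gave -0.50 to 0.01 for Pck1, -0.32 to 0.02 for Hspa8 and -0.02 to 0.42 for Il6. Counting error could not be given for low FPKM values, since absolute depth is unknown, and 3 kidneys a group limit the precision of every difference.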
